A study of Homo sapiens with 8 samples.

Results

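BIRC3 and 9 other genes that restrain programmed cell death were followed after knock-down of RND3 in the human glioblastoma line U87. The 10 genes were BIRC3, BIRC2 and XIAP (inhibitor of apoptosis proteins, IAPs), BCL2, BCL2L1, BCL2A1 and MCL1 (anti-apoptotic BCL2 family), CFLAR (a caspase-8 inhibitor), and TRAF1 and TRAF2 (TNF receptor adaptors). Every non-control probe whose transcript accession matched one of these symbols was taken, which gave 15 of 42405 probes and 10 of 19483 gene symbols. BIRC3 was put on the list because of its low level in RND3-depleted cells, so its knock-down values are described without a test. The other 9 genes were chosen for their role, with earlier results of these data known.

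U87 cells were reverse transfected with siRNA against RND3 (siRND3) or with a non-silencing oligo (siControl), and total RNA was hybridised to 8 one-colour Agilent arrays. There were 3 siControl and 3 siRND3 arrays from 24 h after transfection and 1 array of each kind from 48 h. The methods name a pair of RND3 oligos without stating which array received which, and nothing says that replicates were separate transfections, so p-values measure only the spread between these arrays. All 8 arrays shared 1 slide and 1 scan. The siRND3 arrays filled row 1 and the siControl arrays row 2, which leaves position on the slide and treatment confounded: they cannot be told apart. Both 48 h arrays lay in column 4 and the 24 h arrays in columns 1 to 3, so time and column cannot be told apart either. Per array, 68.3% to 70.7% of probes were well above background. Of 8 astroglial and glioblastoma markers, 3 (VIM, CD44 and NES) exceeded background on all 8 arrays. OLIG2 did so on 7 arrays, S100B and AQP4 on 1 array each, and GFAP and SOX2 on none. Of 10 markers of other cell types, 8 did so on all 8 arrays, at mean log2 levels of at most 7.27 (CDH5), and CDH1 and RBFOX3 on none. Since the RNA came from bulk cultures, fewer cells of a kind and less RNA per cell cannot be told apart.

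IAP proteins carry BIR domains. XIAP blocks active caspases directly, whereas cIAP1 (BIRC2) and cIAP2 (BIRC3) are ubiquitin ligases that TRAF1 and TRAF2 bring to TNF receptors, where they keep RIPK1 in a survival complex and sustain NF-kB activation. BCL2, BCL-xL (BCL2L1), A1 (BCL2A1) and MCL1 hold BAX and BAK at the mitochondrion, and BH3-only proteins such as PUMA (BBC3) and BIM (BCL2L11) oppose them. cFLIP (CFLAR) occupies the death receptor complex in place of caspase-8. BIRC3, BCL2A1, TRAF1 and CFLAR are well known as NF-kB target genes.

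Promoter sequences are shown for the pair of genes among the 10 in which a match to the NF-kB consensus was found, BIRC3 and CFLAR. RefSeq promoter windows (GRCh38.p14, 250 bases before to 50 bases after a start site) were searched on both strands. Capitals mark the matches, and the 250 bases before the start are printed, 5′ to 3′ on the strand of the gene. The BIRC3 stretch lies at chr11:102317234-102317483 on the plus strand. The CFLAR stretch lies at chr2:201118466-201118715 on the plus strand, before 1 of 4 annotated CFLAR starts.
BIRC3: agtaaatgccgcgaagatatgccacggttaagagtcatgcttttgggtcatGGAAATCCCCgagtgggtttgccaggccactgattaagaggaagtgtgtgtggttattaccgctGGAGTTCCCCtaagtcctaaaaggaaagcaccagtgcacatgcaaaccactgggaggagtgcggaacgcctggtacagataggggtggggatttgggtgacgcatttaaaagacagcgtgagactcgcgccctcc
CFLAR: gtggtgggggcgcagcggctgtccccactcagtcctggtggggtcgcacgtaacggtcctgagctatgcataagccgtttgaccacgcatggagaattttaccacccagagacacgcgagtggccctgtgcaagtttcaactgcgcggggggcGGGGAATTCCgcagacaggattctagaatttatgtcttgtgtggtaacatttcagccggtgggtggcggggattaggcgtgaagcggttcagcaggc

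Windows were available for 9 of the 10 genes (18 windows, with none for MCL1). The consensus occurred in 5.91% of all 35116 windows and in at least 1 window of 7.09% of genes. BIRC3 held 2 matches, both read on the minus strand and starting 199 and 135 bases before the start, and CFLAR held 1, starting 97 bases before it. No match was found in the windows of the other 7 genes. These are matches of letters, not measured binding.

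RND3 was examined first as the check of the labels. Its probe read 11.88, 11.91 and 11.90 on the log2 intensity scale on the siControl arrays at 24 h and 10.12, 10.18 and 10.42 on the siRND3 arrays. All siRND3 values lay below all siControl values, and RND3 was reduced to 31.7% of its control level (exact two-sided permutation p = 0.1, which is as low as 3 against 3 arrays can give). At 48 h the values were 11.48 and 9.84.

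**Figure D1:**
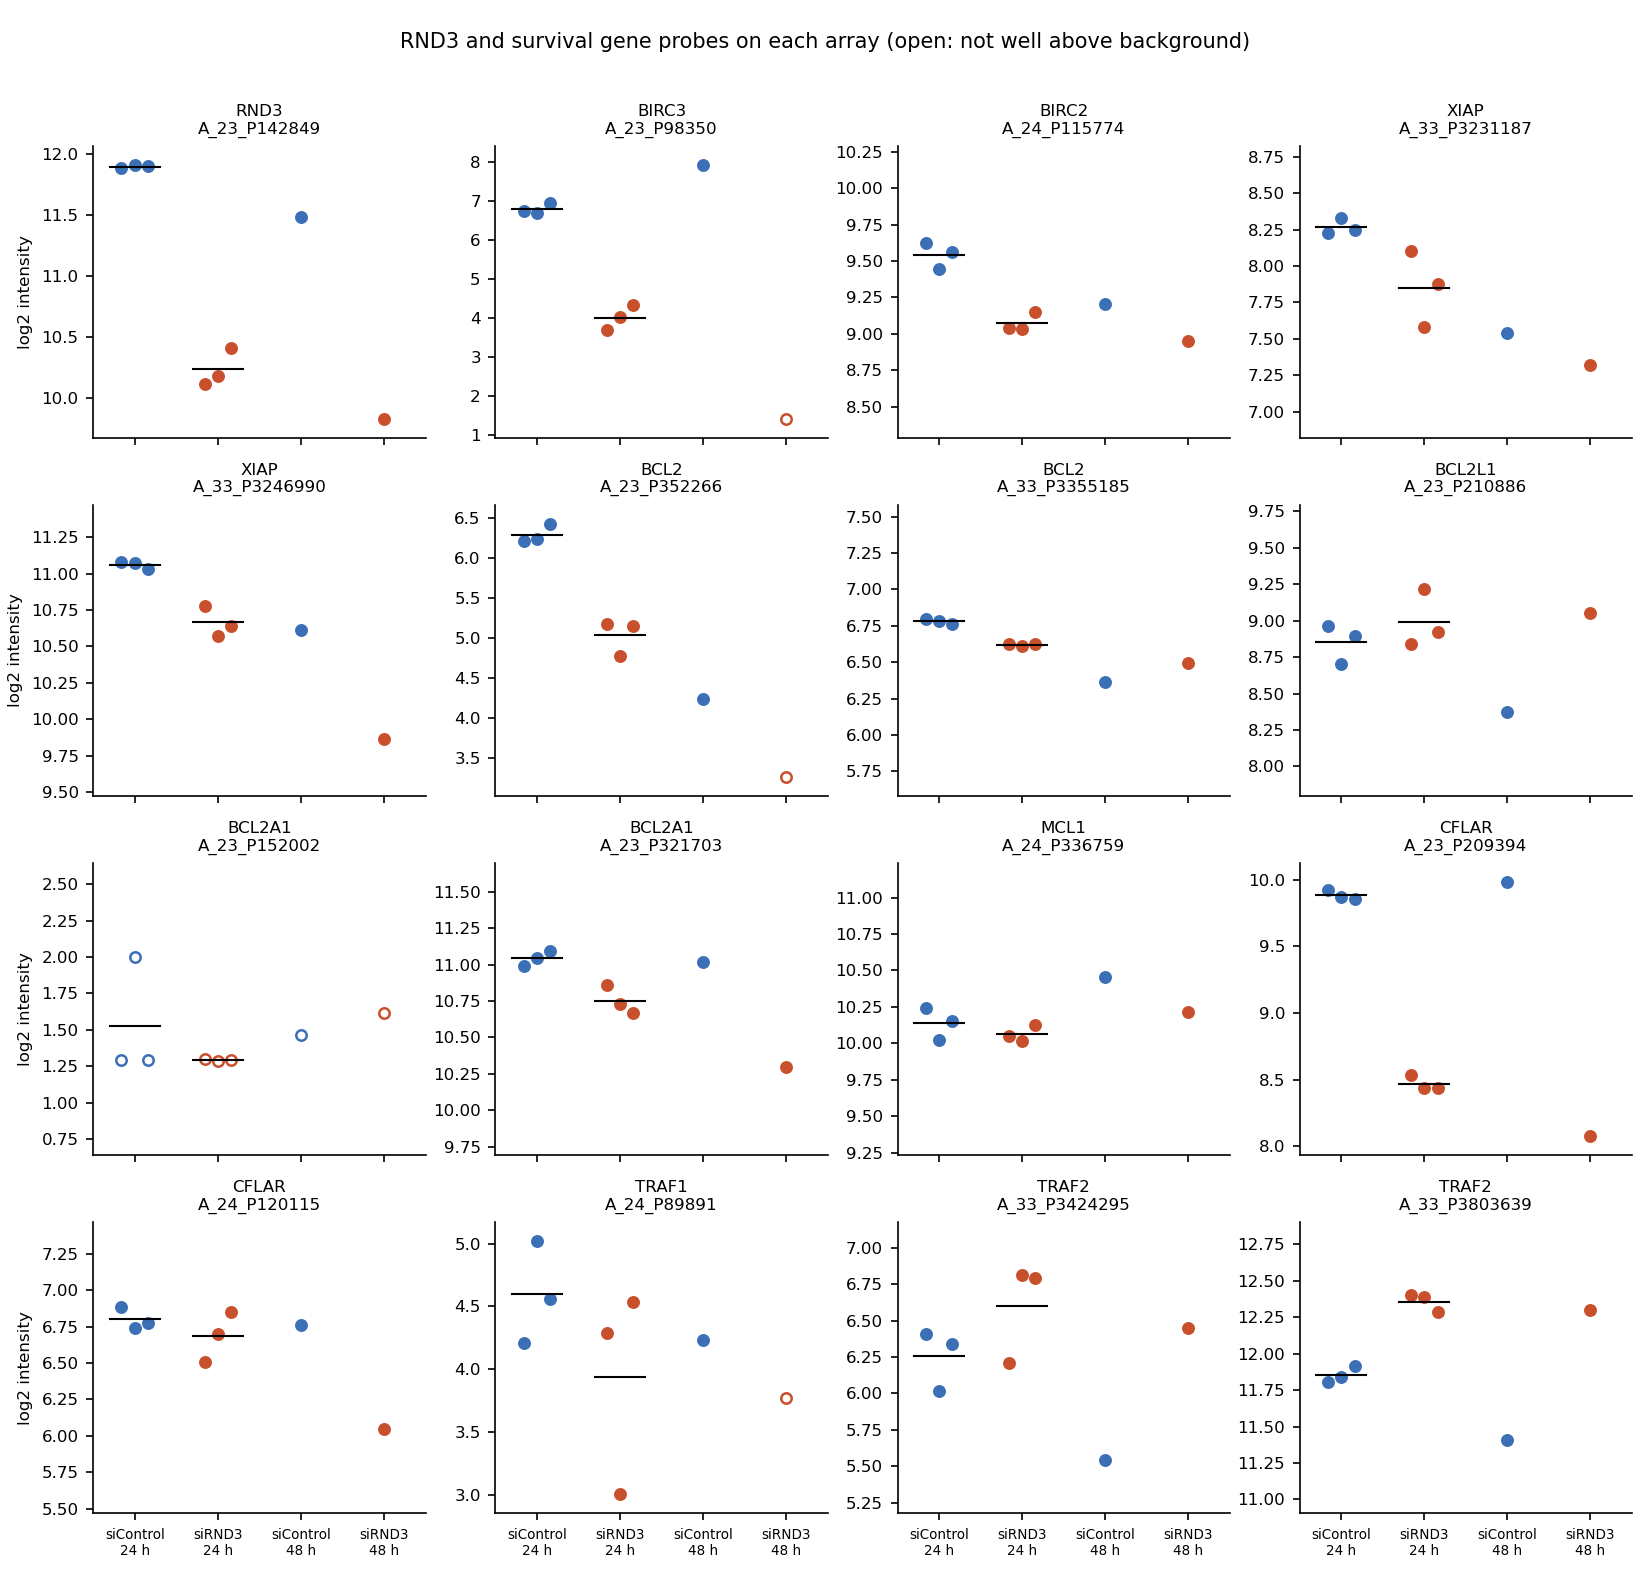
Log2 intensity of RND3 and of each of the 15 survival gene probes on the 8 arrays, in 1 panel per probe with its own vertical scale. Each point is 1 array (blue siControl, red siRND3), lines are means of 3 arrays, and open points were not well above background. Of the survival genes, BIRC3, CFLAR (A_23_P209394) and BCL2 (A_23_P352266) show the widest gaps between siControl and siRND3 arrays at 24 h, and TRAF2 (A_33_P3803639) is higher on the siRND3 arrays.

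BIRC3 was lower on every siRND3 array. Its log2 intensity was 6.75, 6.70 and 6.94 on the siControl arrays at 24 h and 3.68, 4.04 and 4.32 on the siRND3 arrays. The probe was well above background on all of these 6 arrays, with processed intensities of 113, 99.8 and 133 against 12.4, 16.5 and 18.7. The groups did not overlap, and the mean difference was -2.78 on the log2 scale, or 14.5% of the control level. By size of decrease BIRC3 had rank 11 among 14324 genes whose probe exceeded background on each of the 6 arrays at 24 h. This rank only describes the fall that put BIRC3 on the list. Genes dim on a siRND3 array at 24 h, such as CSF2 (-3.05), were not ranked.

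At 48 h BIRC3 read 7.92 in siControl cells and 1.42 in siRND3 cells, and in the latter it did not exceed background. The siControl value was 41.6-fold above the lowest signal well above background on that siRND3 array (2.54 on the log2 scale, quantile-normalised). This floor is no detection limit. On the same array BCL2 A_23_P352266 (3.26) and TRAF1 (3.77) read above it without being well above background. Folds taken against the floor are therefore not strict bounds. In log2 terms that floor-based difference of 5.38 exceeded the size of the difference at 24 h by 2.59. Within siRND3 cells the BIRC3 mean at 24 h was 2.77-fold above the same floor (1.47 on the log2 scale) in these quantile-normalised values. Because the siRND3 signals were near background, the size depended on background treatment. At 24 h the difference was -1.16 after normexp correction and -1.63 in the authors' log2 values, and at 48 h it was -2.25 and -3.12. Both differences at 48 h were smaller in size than the floor-based 5.38. The difference over time in siRND3 cells was only -0.25 and -0.51 under these settings, smaller in size than the floor-based 1.47. In siControl cells, a contrast that did not select the gene, BIRC3 was 1.12 higher at 48 h than at 24 h (SE 0.24, adjusted p = 0.0593). It did not pass the threshold of 0.05 there, but passed in 6 of 11 alternative settings (adjusted p = 0.00211 to 0.136 over the 11).

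Among the other 9 genes at 24 h, 4 fell (CFLAR, BCL2, BIRC2 and XIAP), 1 rose (TRAF2) and 4 did not pass (BCL2L1, BCL2A1, MCL1 and TRAF1). A gene was counted when some probe of it had a limma adjusted p under 0.05 and no other probe passed in the opposite direction. Over all 14805 genes tested, 16.4% were called, 9.26% lower and 7.16% higher. The median difference over the 13 tested probes of the 9 genes was -0.29, and that over all 28759 probes tested was 0.05. The second BCL2A1 probe (A_23_P152002) exceeded background on none of the 8 arrays and was not tested. The siRND3 arrays lay wholly below the siControl arrays for 7 of the 13 probes and wholly above for 1; over all probes the groups did not overlap in 34.4% (14.0% below and 20.3% above).

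**Figure D2:**
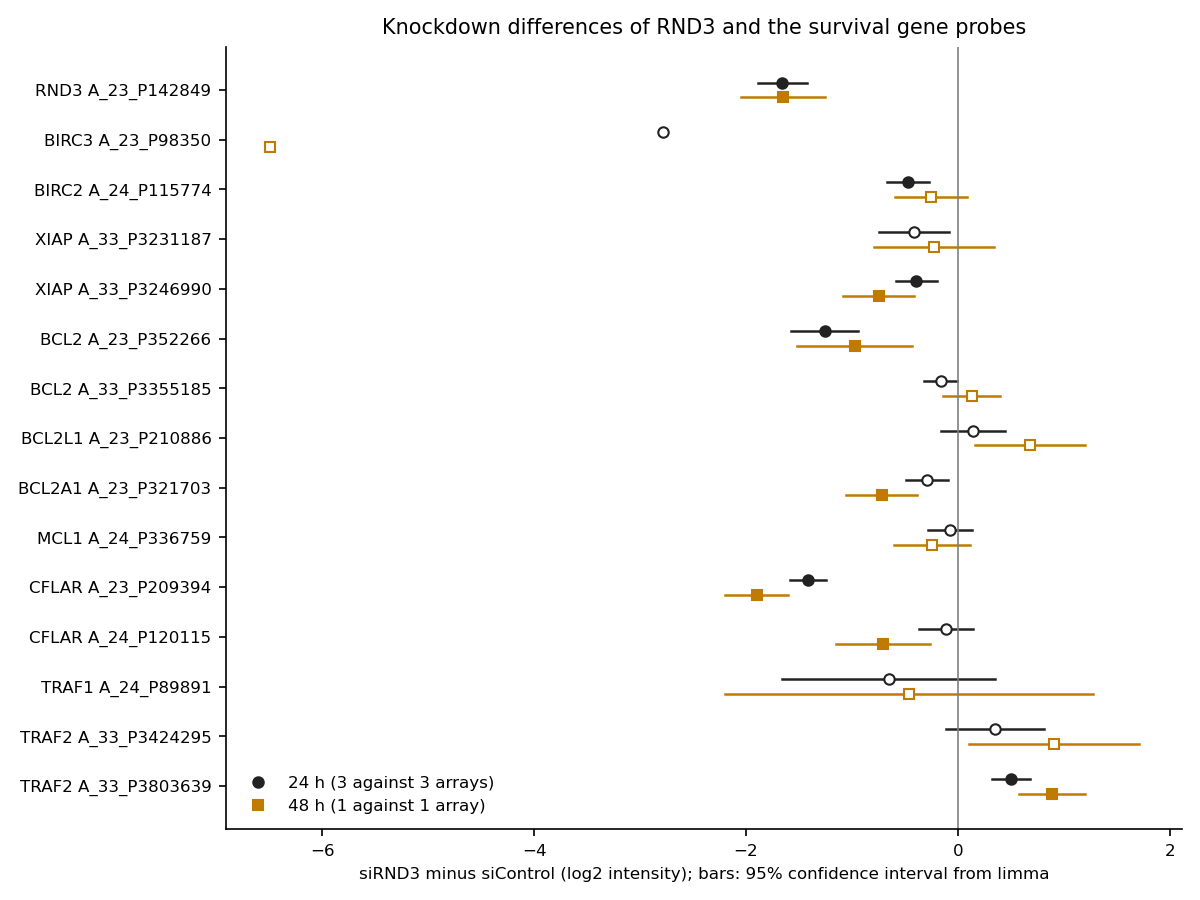
Difference between siRND3 and siControl cells in log2 intensity (horizontal axis) for RND3 and the 14 tested probes, at 24 h (circles, 3 against 3 arrays) and 48 h (squares, 1 against 1 array). Bars are 95% confidence intervals from limma, filled symbols passed an adjusted p of 0.05, and BIRC3 is drawn without interval or test; its 48 h symbol uses a value not well above background. CFLAR A_23_P209394 stands at -1.41 and -1.90, and TRAF2 A_33_P3803639 at 0.50 and 0.89.

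The other IAP genes moved less than BIRC3. BIRC2, the close paralog of BIRC3, read 9.62, 9.44 and 9.56 in siControl cells and 9.04, 9.03 and 9.15 in siRND3 cells at 24 h. The groups did not overlap, and BIRC2 fell by 0.47 on the log2 scale (SE 0.08, adjusted p = 0.0166). This call was lost without siControl replicate 1 (adjusted p = 0.0684), siControl replicate 3 (0.0756) or siRND3 replicate 2 (0.0511). At 48 h BIRC2 read 9.21 and 8.95, a difference of -0.26 that did not pass (adjusted p = 0.293).

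XIAP was measured by a pair of probes. On A_33_P3246990 it read 11.08, 11.07 and 11.03 against 10.78, 10.57 and 10.64 at 24 h, without overlap, and fell by 0.39 on the log2 scale (SE 0.08, adjusted p = 0.0274). The call was lost when any of siControl replicates 1, 2 and 3 or siRND3 replicates 2 and 3 was left out (adjusted p = 0.0667 to 0.0977). At 48 h the same probe read 10.62 and 9.87, and the fall of 0.75 passed (SE 0.14, adjusted p = 0.0131). In siRND3 cells this probe also fell by 0.80 between 24 h and 48 h (adjusted p = 0.0112). The second XIAP probe, A_33_P3231187, differed by -0.42 at 24 h, with the siRND3 values of 8.10, 7.58 and 7.87 below the siControl values of 8.23, 8.33 and 8.25, and did not pass (adjusted p = 0.104). At 48 h this second probe differed by -0.22, and over time in siRND3 cells by -0.53. Neither difference passed, so those calls for XIAP rest on A_33_P3246990.

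In the BCL2 family, BCL2 was the member that fell at 24 h. Its probe A_23_P352266, printed in 10 spots per array, read 6.21, 6.24 and 6.43 in siControl cells and 5.18, 4.78 and 5.15 in siRND3 cells. The groups were well apart, and BCL2 fell by 1.26 on the log2 scale (SE 0.13, adjusted p = 0.00253), with a fall of 0.56 after normexp correction that also passed. On this probe BCL2 also declined with time in both kinds of cells. In siControl cells the probe read 4.24 at 48 h, and BCL2 fell by 2.06 (SE 0.19, adjusted p = 0.0102), or by 0.77 after normexp. In siRND3 cells it read 3.26, not well above background. In the quantile-normalised values BCL2 was 3.42-fold lower there than at 24 h and 1.97-fold lower than in siControl cells at 48 h. Both folds rest on that dim reading and are not bounds, and the 48 h difference passed the threshold. After normexp the fall over time in siRND3 cells was smaller, at -0.37 on the log2 scale, and still passed. The call at 48 h was lost after normexp (-0.16, adjusted p = 0.420), in the authors' values (-0.27, 0.270), with no filter on dim probes (0.0595) and without siControl replicate 1 (0.0507) or replicate 2 (0.0519). The second BCL2 probe, A_33_P3355185, read 6.80, 6.78 and 6.76 against 6.62, 6.61 and 6.62 at 24 h. These groups did not overlap either, but the difference of -0.16 did not pass (adjusted p = 0.163), so both probes disagreed in size. At 48 h the second probe was higher in siRND3 than in siControl cells, by 0.13. Over time it differed by -0.42 in siControl cells and by -0.13 in siRND3 cells. None of these differences passed.

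BCL2L1, which encodes BCL-xL, overlapped between groups at 24 h, with 8.96, 8.70 and 8.89 in siControl cells and 8.84, 9.22 and 8.92 in siRND3 cells. Its difference was 0.14 with a 95% interval from -0.16 to 0.44. At 48 h it read 8.38 and 9.05, and this difference of 0.68 did not pass (adjusted p = 0.0792), though it did after normexp (0.0343) and without siRND3 replicate 2 at 24 h (0.0442). BCL2A1 (A_23_P321703) read 10.99, 11.05 and 11.09 against 10.86, 10.73 and 10.67 at 24 h. All siRND3 values were the lower ones, but the difference of -0.29 did not pass (adjusted p = 0.0672). It passed after normexp (0.0264) and in the authors' values (0.0493). At 48 h BCL2A1 read 11.02 and 10.30, and fell by 0.72 on the log2 scale (SE 0.14, adjusted p = 0.0154). MCL1, a short-lived protein whose gene had 1 probe, read 10.24, 10.02 and 10.15 against 10.05, 10.01 and 10.13, with overlap and a difference of -0.08 (95% interval -0.28 to 0.13). Its values at 48 h were 10.46 and 10.21 (adjusted p = 0.340).

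CFLAR was the most strongly lowered of the 9 genes. Its probe A_23_P209394 read 9.92, 9.87 and 9.85 in siControl cells and 8.53, 8.44 and 8.44 in siRND3 cells at 24 h. The groups lay far apart relative to their spread, and CFLAR fell by 1.41 on the log2 scale (SE 0.07, adjusted p = 0.000213), to 37.5% of control. At 48 h the probe read 9.98 and 8.08, and CFLAR fell by 1.90 (SE 0.12, adjusted p = 0.000417). This probe passed at both times in every alternative run. The other CFLAR probe, A_24_P120115, read 6.89, 6.74 and 6.78 against 6.51, 6.70 and 6.85 at 24 h, with overlap and a difference of -0.12 (adjusted p = 0.534). At 48 h that probe read 6.76 and 6.05 and fell by 0.71 (adjusted p = 0.0415), a call lost in 7 of 11 alternatives, among them the ones without siControl replicate 1 (adjusted p = 0.0680), 2 (0.0700) or 3 (0.0781) and without siRND3 replicate 2 (0.0655). Both probes match CFLAR transcripts, and which isoforms each detects was not tested.

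Of the TRAF adaptors, TRAF2 rose. Its probe A_33_P3803639 read 11.81, 11.84 and 11.92 in siControl cells and 12.40, 12.39 and 12.29 in siRND3 cells at 24 h. Every siRND3 value was the higher, and TRAF2 rose by 0.50 on the log2 scale (SE 0.07, adjusted p = 0.00924). At 48 h the probe read 11.41 and 12.30, a rise of 0.89 (SE 0.13, adjusted p = 0.00530). The other TRAF2 probe, A_33_P3424295, differed by 0.35 at 24 h and 0.90 at 48 h, and passed at neither time (adjusted p = 0.297 and 0.119). TRAF1 was dim, reading 4.21, 5.02 and 4.55 against 4.28, 3.00 and 4.53, and siRND3 replicate 2 was the lowest of the 6. Its interval at 24 h, from -1.66 to 0.35, spans a large range in either direction.

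At 48 h, on 1 array per group and with the spread taken from 24 h, 4 of the 9 genes fell (CFLAR, XIAP, BCL2 and BCL2A1), 1 rose (TRAF2), and 27.6% of all genes were called (13.3% lower and 14.3% higher). Between 24 h and 48 h, BCL2 was the only one of the 9 genes called in siControl cells (it fell), against 5.17% of all genes (3.99% lower), and BCL2 and XIAP fell in siRND3 cells, against 12.8% of all genes called there (9.19% lower). The knock-down difference itself was compared between times in the same model. None of the 9 genes was called in limma, with 4 of 13 probes at an unadjusted p under 0.05, and 4.24% of all genes were called. The difference at 48 h minus that at 24 h was -0.49 for CFLAR A_23_P209394 (adjusted p = 0.136), -0.43 for BCL2A1 (0.228) and 0.38 for TRAF2 A_33_P3803639 (0.238).

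The genes around these 10 in the same pathways were then counted, on 4 lists, and a few caspase genes are described beside them. Since the lists were chosen with earlier results of these data known, their counts beside the shares over all genes are a description. Among 19 tested NF-kB target genes outside the 10 (of 21 listed), 10 fell at 24 h and none rose, and the median over their 22 probes was -0.51. Over all genes tested, 9.26% were called lower. With any 1 of the arrays at 24 h left out, 7 to 9 genes of this list were called. CXCL8 fell by 1.31 (SE 0.24, adjusted p = 0.0187), CXCL2 by 0.82, CXCL1 by 0.80 and IL6 by 0.79, all chemokines or cytokines. PTGS2 (cyclooxygenase-2) fell by 0.70 and RELB (an NF-kB subunit) by 0.65. The CXCL8 call was lost without siControl replicate 1 (adjusted p = 0.0591), 2 (0.0628) or 3 (0.0644). After normexp some of these differences shrank, to -0.81 for CXCL8, -0.41 for CXCL1 and -0.26 for PTGS2, and these still passed. TNFAIP3, NFKB1 and SOD2 did not pass at 24 h, with differences of -0.08, -0.02 and -0.04. In siControl cells 8 of the 19 rose from 24 h to 48 h, among them IL6 by 1.37 and CXCL1 by 1.41, where 1.19% of all genes rose. At 48 h 13 of the 19 were lower in siRND3 cells, where 13.3% of all genes were called lower. CXCL8 differed there by -3.84 (-2.0 after normexp), CXCL1 by -2.96 (-1.58 after normexp) and IL6 by -2.57. TNFAIP3 was among the 13, with a fall of 0.68 (adjusted p = 0.0186).

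Among 11 tested BCL2 family genes outside the 10 (of 13 listed), 4 rose at 24 h and none fell, where 7.16% of all genes rose. All 4 are pro-apoptotic, but so is every tested gene of this list except BCL2L2. BBC3 (PUMA) read 8.93, 9.01 and 8.95 against 9.72, 9.83 and 9.72 and rose by 0.80 (SE 0.07, adjusted p = 0.00150), passing in every alternative. BMF rose by 0.63 (adjusted p = 0.0178), BAK1 by 0.44 (0.0354) and BCL2L11 (BIM) by 0.38 (0.0446). Leaving out any 1 of the 6 arrays at 24 h lowered this count to between 1 and 3, and the BCL2L11 call was lost each time. BAX and PMAIP1 did not pass, with differences of 0.04 and -0.24. At 48 h HRK rose by 1.71, BBC3 by 1.33, BCL2L11 by 0.84 and BAK1 by 0.64, and BID fell by 0.81. The BAK1 call at 48 h was lost without any of siControl replicates 1, 2 and 3 at 24 h or siRND3 replicate 3 (adjusted p = 0.0629 to 0.0796).

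Of the caspases described here, CASP6 read 9.63, 9.62 and 9.64 in siControl cells and 8.31, 8.28 and 8.36 in siRND3 cells at 24 h and fell by 1.31 (adjusted p = 0.000218), without overlap between groups. CASP10 rose by 0.36, a call lost when any 1 of the 6 arrays at 24 h was left out. CYCS (cytochrome c) fell by 0.34, and this call was lost likewise. CASP8 and CASP9 did not pass. Of 7 other IAP genes and antagonists, BIRC5 (survivin) rose by 0.31 and HTRA2 (an IAP-binding protease) by 0.37 at 24 h. With any 1 of the 6 arrays at 24 h left out, 0 or 1 gene of this list was called. At 48 h, on 1 array per group, BIRC5 differed by 0.59, HTRA2 by 0.48 and DIABLO by -0.66. Of 16 genes of the TNF receptor complex and NF-kB signalling, TRAF6 rose by 0.44 (adjusted p = 0.0246). TAB2 (an adaptor of the kinase TAK1) fell by 0.86 (adjusted p = 0.00165). The other 14 did not pass at 24 h, FADD, RIPK1 and CYLD among them. Over all genes tested, 16.4% were called at 24 h, a share that belongs beside the counts of this list and the IAP list. Leaving out any array at 24 h other than siRND3 replicate 2 ended the TRAF6 call, with an adjusted p between 0.0518 and 0.0909. At 48 h TAB2 was lower by 1.71 and TRAF6 higher by 0.81. FADD rose by 0.59 at 48 h (adjusted p = 0.0198), and TRAF3 by 1.01 (adjusted p = 0.0490), a call lost in 7 of 11 alternatives, including those without siControl replicate 1, 2 or 3 at 24 h or siRND3 replicate 1 or 3 (adjusted p = 0.0521 to 0.0833).

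**Figure D3:**
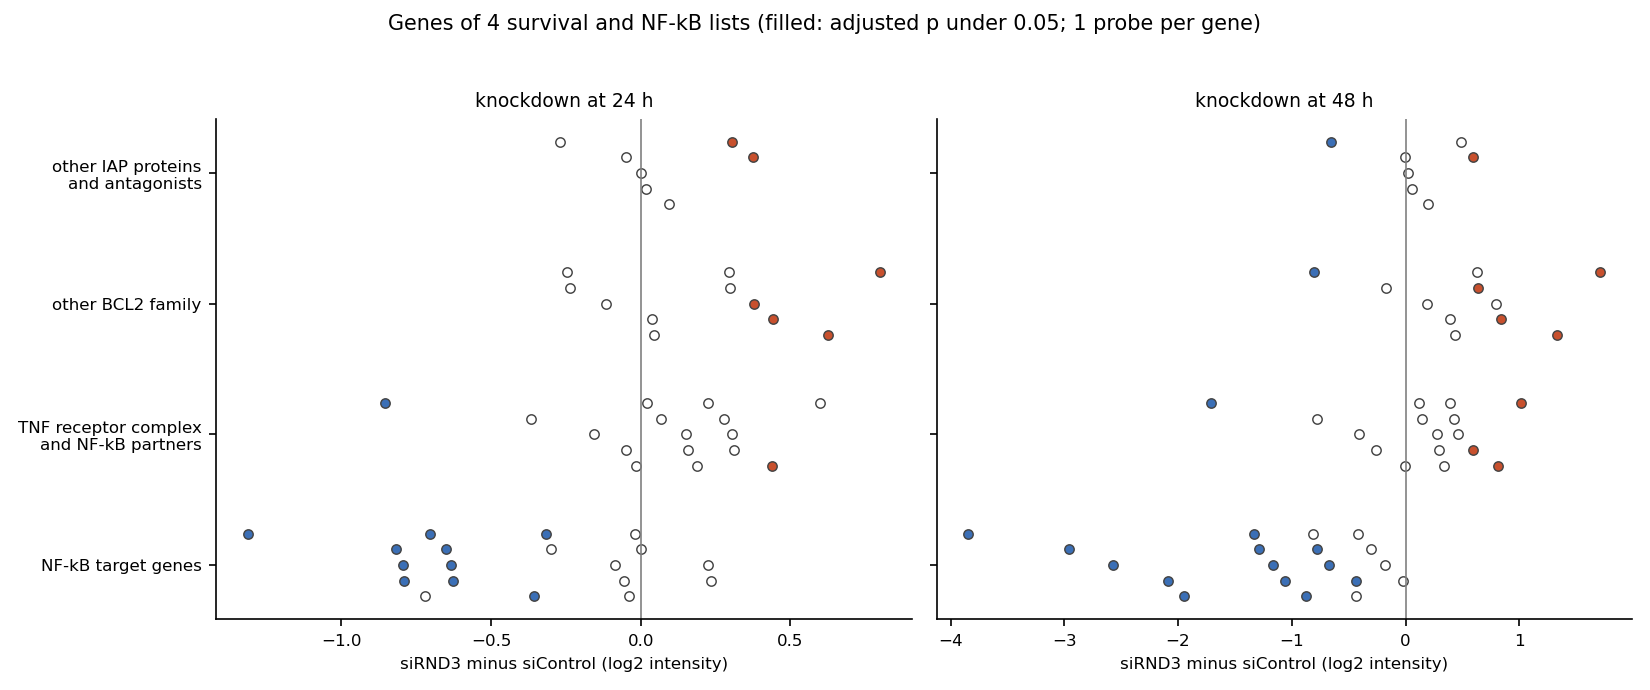
Difference between siRND3 and siControl cells in log2 intensity for each tested gene of the 4 lists, with 24 h on the left and 48 h on the right (the horizontal scales differ). Each point is 1 gene at 1 probe, and filled points passed an adjusted p of 0.05 (red higher, blue lower). NF-kB target genes that passed all lie left of 0, 10 at 24 h and 13 at 48 h, and the 4 other BCL2 family genes that passed at 24 h lie right of it.

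The genes nearest to BIRC3 in profile were found by Euclidean distance over the 8 arrays, each value taken as its log2 difference from the mean of the siControl arrays at 24 h, among 18564 probes with a symbol that exceeded background on all 4 siControl arrays. They were CSF2 (distance 1.27, the cytokine GM-CSF), TMEM64 (1.28), TFPI (1.49, tissue factor pathway inhibitor), SUB1 (1.79) and SINHCAF (1.84). Their differences at 24 h ran from -3.35 to -2.61. CSF2 alone of the 5 shared a clearly higher value on the siControl array at 48 h, by 2.15 against 1.12 for BIRC3, and the other 4 differed there by 0.02 to 0.51. CSF2 and TMEM64 did not exceed background in siRND3 cells at 48 h, nor did CSF2 in siRND3 replicate 1 at 24 h. Such values, that of BIRC3 at 48 h included, enter the distances, so the order of the 5 genes carries no meaning. Since the genes were picked for likeness on these arrays, no test was made.

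**Figure D4:**
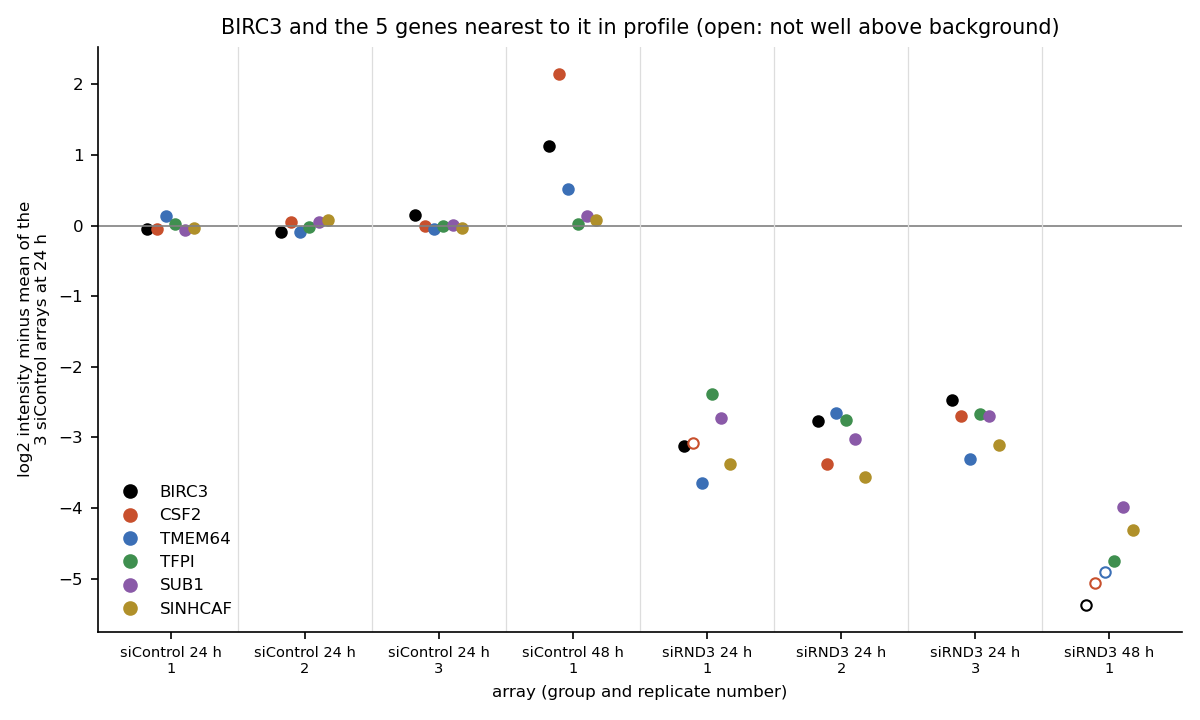
Log2 intensity of BIRC3 and its 5 nearest genes on each array (horizontal axis), minus each gene's mean over the 3 siControl arrays at 24 h. Open points are measured values not well above background, so the sizes of those falls are uncertain. All 6 genes lie near 0 on the siControl arrays at 24 h and below -2 on every siRND3 array, and BIRC3 and CSF2 are the highest on the siControl array at 48 h, at 1.12 and 2.15.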

How the data were processed

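Total RNA from U87 cells was profiled on 8 Agilent human arrays with 1 colour (Cy3). Groups came from the deposited labels. The 10 genes, the 5 pathway lists and the rule for named genes (RND3, all 10 genes, up to 6 genes per list with the largest difference at 24 h among those past the threshold, and the 5 nearest profiles) were chosen with earlier results of these data known; 48 h values and a few genes that did not pass were added after values were seen.

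The authors labelled RNA with a low-input kit and extracted spots with Feature Extraction 10.7.3.1 (Agilent). In the deposited files, intensity is linear, and the headers show a processed signal that is background-corrected but unscaled between arrays. The authors' deposited table of log2 values holds quantile-normalised median signals without background subtraction, judged by its rank order within each array, and served as an alternative. The authors' log2 values therefore shrink differences of dim probes.

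Here, the processed intensity was put on the log2 scale and quantile-normalised across all 8 arrays. Control spots (4259 of 62976) and outlier-marked spots were left out, and spots of a probe were averaged. Probes were named by transcript accession through the RefSeq table of GRCh38.p14 (25422 of 42405, 60.0%); array annotation used another build, so gene coordinates are not printed. A probe was well above background where at least 50% of its spots were so marked, and was tested if this held on all 3 arrays of a group at 24 h (28759 probes). No spot was saturated. The number of arrays limits the precision. A floor-based difference sets the brighter group against the dim probe's own value or the lowest signal well above background on that array, whichever is higher. Such differences hold for the quantile-normalised values only and are not strict bounds.

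limma 3.58.1 (lmFit, eBayes) in R 4.3.3 was used without covariates, on the 6 arrays at 24 h, and in a 4-group model for contrasts with 48 h, whose spread (4 residual degrees of freedom) comes from 24 h alone. Benjamini-Hochberg adjustment ran over all probes tested, with a threshold of 0.05. The steps were tested on simulated data. Alternatives were scaling to the 75th percentile, normexp (offset 50), the authors' values, no or a stricter dim-probe filter, SAM at 5% false discovery rate (named in the methods), a replicate block, all 8 arrays in 1 model, the mean of a gene's probes, and leaving out each array at 24 h. Slide as a block was not run, with 1 slide. Some results of the list of caspases are not reported here, and that list enters only the number of probes tested for a change of the knock-down difference between times.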

Additional observations from a re-analysis of the deposited data

Results flagged for a closer look

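None of the 9 survival genes other than BIRC3 had a knock-down difference that changed between 24 h and 48 h past the threshold. Among 93 probes of 71 genes, those 9 and the pathway genes together, 8 probes did, by the limma test of the difference between both times (37 at an unadjusted p under 0.05). The difference at 48 h minus that at 24 h was -2.53 for CXCL8 (adjusted p = 0.0499), -2.17 for CXCL1 (0.0203), -1.78 for IL6 (0.0141) and -1.46 for CCL2 (0.0245). It was -1.30 and -1.34 on the pair of IER3 probes (0.0196 each), -0.85 for TAB2 (0.0491) and 1.41 for HRK (0.0412). Over all genes tested, 4.24% were called for this contrast, a share counted by gene and not by probe. The lists were chosen with earlier results of these data known. The 48 h values rest on 1 array per group. No alternative setting was run for these 8 probes in this contrast. After normexp the CXCL8 differences at single times shrank to -0.81 at 24 h and -2.0 at 48 h. Those of CXCL1 shrank to -0.41 and -1.58, so the sizes for both genes may depend on background treatment.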

How the results depend on the processing

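Of the 9 genes, 5 were called at 24 h, and 2 to 6 over the alternatives. With the replicate number as a block 2 were called (BCL2 and CFLAR), with adjusted p of 0.0553 for BIRC2, 0.0765 for XIAP and 0.0517 for TRAF2. Same-numbered arrays did not deviate together (correlations 0.00200, -0.0118 and 0.129), so the numbers give no pairing. Leaving out 1 array at 24 h gave 3 to 5 genes, and it gave 3 when the array left out was siControl replicate 1, siControl replicate 3 or siRND3 replicate 2. In siControl cells over time 1 gene was called, 3 after normexp and 2 in the authors' values. The counts for the other contrasts stayed within 1.5 times. Signs turned in values that never passed. BCL2L1 at 24 h was -0.025 in the authors' values. TRAF1 at 48 h was 0.019 after normexp, and over time in siRND3 cells 0.038 after normexp and 0.024 in the authors' values. CFLAR A_24_P120115 over time in siControl cells was 0.062 at the 75th percentile scaling, and for the change of the knock-down difference between times RND3 was -0.000413 at that scaling. Leaving out 1 array at 24 h also turned signs. Over time in siControl cells the range was -0.073 to 0.00104 for CFLAR A_24_P120115 and -0.049 to 0.000219 for BCL2A1. Over time in siRND3 cells it was -0.64 to 0.12 for TRAF1 and -0.015 to 0.17 for BCL2L1. For the change between times it was -0.053 to 0.094 for RND3 and -0.28 to 0.49 for TRAF1. The cause of these shifts was not tested. In siRND3 cells at 48 h, BIRC3, BCL2 and TRAF1 were not well above background, so the sizes of their differences there are uncertain.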
